A study of Mus musculus with 3 samples.

Results

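Microtubule-associated protein genes were described in RNA that was purified with tagged ribosomes from the dentate gyrus of adult mice. The set holds 10 genes of 32531 in the count tables, namely Map1a, Map1b, Map1s, Map2, Map4, Map6, Map6d1, Map7d1, Map7d2 and Map9. The set was selected on the read counts themselves, since Map1b is among the genes with the most counts, so the levels of all 10 are a description and were not tested. The mice, of strain C57BL/6J, carried the Penk-TRAP transgene of line NIDA186 and received no treatment. In this line the proenkephalin gene Penk lends its regulatory DNA to a fusion of EGFP and the ribosomal protein Rpl10a, and tagged polysomes were pulled down with antibodies against EGFP. All 3 libraries were immunopurified samples of 1 group, named replicates 1 to 3, with no other group or whole-tissue library used here. Separate animals are not named in the labels, and p-values measure only the spread between these libraries, which may be technical.

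Microtubules are polar tubes of tubulin that fill axons and dendrites and carry motor traffic. Microtubule-associated proteins (MAPs) bind along the tube, stabilise or bundle it, and help decide which motors run on it. Map1a, Map1b and Map1s encode the MAP1 family, whose precursors are cut into a heavy and a light chain. Map2 encodes a protein that marks dendrites, and Map4 a related protein made in most tissues. Map6 encodes a protein of cold-stable microtubules and Map6d1 a smaller relative of it. Map7d1 and Map7d2 belong to the MAP7 family, which recruits kinesin-1, and Map9 encodes a protein of the mitotic spindle.

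The libraries held 5348761, 19195559 and 11059982 counts on genes in replicates 1 to 3. Replicate 1 stood apart, with 8795 genes at 10 counts or more against 14252 and 12019. Pan-neuronal markers (Rbfox3, Snap25, Syt1, Syn1, Nefl) summed to 10705, 14898 and 9683 CPM, where a count is divided by the TMM-scaled total of its library, in replicates 1 to 3. Dentate granule cell markers (Prox1, Calb1, C1ql3, Tdo2, Dsp, Rfx3) summed to 1086, 1348 and 890.1 CPM, with C1ql3 at 0 counts in replicate 1. Most of that sum came from Prox1 (658, 475 and 261 CPM) and Rfx3 (399.8, 629 and 391 CPM). Calb1, C1ql3, Tdo2 and Dsp were all lowest in replicate 1, Calb1 at 0.472, 58.9 and 10.4 CPM and Dsp at 27.1, 99.3 and 179 CPM. Microglial markers summed to only 3.30, 6.81 and 20.9 CPM. In these bulk samples fewer cells of a type and less RNA per cell cannot be told apart. The counts are per gene, so splice forms of Map2 or Map4 were not separated.

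The 10 genes together took up 0.675, 1.08 and 1.92% of all gene counts in replicates 1 to 3, and Map1b alone made up 67.9, 68.2 and 73.0% of that family sum. All 10 passed the filter on low counts, which kept 8510 genes. Levels between genes are compared per kilobase (kb) of merged exon, since longer transcripts give more counts. On that scale Map1b was followed by Map1a and Map2, then by Map4, Map9, Map7d2, Map6d1 and Map7d1, with Map1s and Map6 lowest. The order over the 10 genes was alike between libraries, with Spearman's rho of 0.867 for replicates 1 and 2, 0.927 for 1 and 3, and 0.915 for 2 and 3, over genes that share their libraries and exon lengths. The median level of the 10 lay 2.26 above the median tested gene in log2 CPM per kb, where the median over all 7924 tested genes with a length was -0.14.

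**Figure D1:**
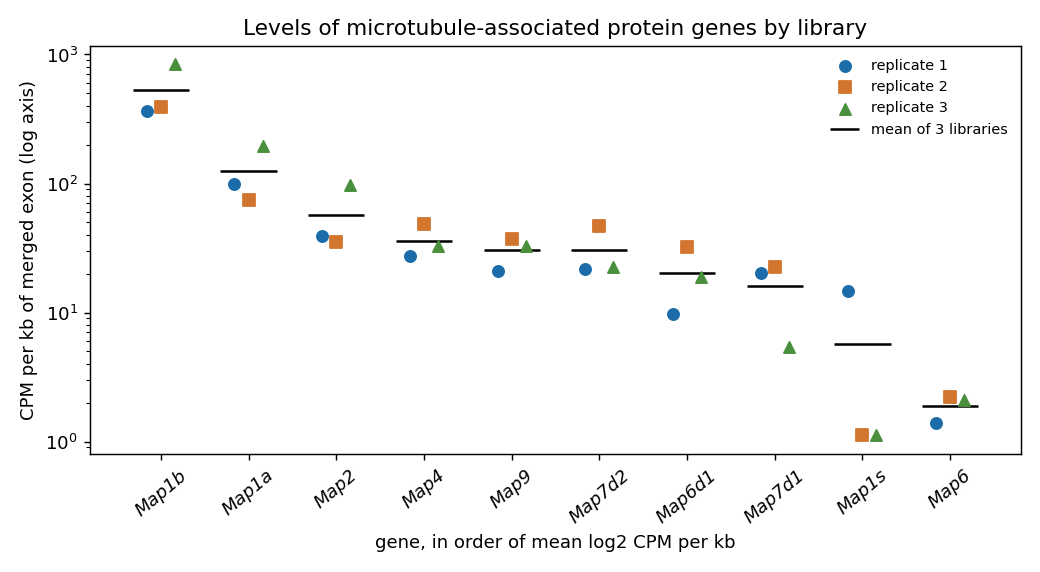
Each point is the level of 1 gene in 1 library, in CPM per kb of merged exon on a log axis, with genes in order of their mean log2 level and the line at the mean of the 3 libraries. Map1b lies above the other 9 genes in every library, and Map1s is far higher in replicate 1 (14.8) than in replicates 2 and 3 (1.13 and 1.12).

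The promoters of Map1b, Map1a and Map2 are shown because these 3 genes led the family and were all highest in replicate 3. Each run is the 250 bases before the start given by RefSeq on GRCm38.p6, read 5′ to 3′ on the strand of the gene. The window of Map1b is chr13:99516603-99516852 (minus strand), that of Map1a chr2:121289352-121289601 (plus) and that of Map2 chr1:66175079-66175328 (plus). Capitals mark any of 3 promoter motifs, searched on both strands. The GC box was searched as the letters GGGCGG. The TATA box was searched as TATAAA. The CCAAT box was searched by the letters of its name.
Map1b: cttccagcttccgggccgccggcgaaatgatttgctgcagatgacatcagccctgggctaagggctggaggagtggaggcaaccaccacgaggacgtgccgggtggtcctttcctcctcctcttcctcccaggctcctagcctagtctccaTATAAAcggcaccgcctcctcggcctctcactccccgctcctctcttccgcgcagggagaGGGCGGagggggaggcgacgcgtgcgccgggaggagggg
Map1a: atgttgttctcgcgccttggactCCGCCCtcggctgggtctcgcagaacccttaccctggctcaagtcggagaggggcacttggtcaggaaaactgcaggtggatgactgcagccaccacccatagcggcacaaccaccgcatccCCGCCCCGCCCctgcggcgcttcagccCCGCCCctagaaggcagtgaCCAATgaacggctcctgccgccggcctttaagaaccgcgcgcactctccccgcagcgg
Map2: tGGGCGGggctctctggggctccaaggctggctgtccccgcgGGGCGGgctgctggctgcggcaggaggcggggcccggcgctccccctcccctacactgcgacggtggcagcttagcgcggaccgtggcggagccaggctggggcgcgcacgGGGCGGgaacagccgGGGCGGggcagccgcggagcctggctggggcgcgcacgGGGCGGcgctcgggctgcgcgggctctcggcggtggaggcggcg
Map1b held 1 TATA box and 1 GC box. Map1a held 4 GC boxes, of which 1 pair shares a base, and 1 CCAAT box, while Map2 held 5 GC boxes and no TATA or CCAAT match. Over 32851 RefSeq windows of the same length, 32.7% held a GC box, 12.4% a TATA box and 33.8% a CCAAT box. G and C made up 66.4% of the Map1b window, 66.0% of that of Map1a and 81.2% of that of Map2, against a median of 52.4% over all windows. Windows of other members ranged from 37.2% (1 of 2 for Map7d2) to 74% (1 of 2 for Map4). Map7d1 held 4 GC boxes in each of its 2 windows and Map4 3 in 1 of 2, while Map1s, Map6d1, Map7d2 and Map9 held none. The Map2 window reaches past the gene start of 66175273 in GENCODE. A match is a run of letters only and shows no bound factor. Of the 10 genes, 9 had a window in the RefSeq table.

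Map1b (chromosome 13, 99421446 to 99516540, minus strand, GRCm38) encodes the MAP1 protein that is abundant in growing axons. It had 24515, 141043 and 154935 counts in replicates 1 to 3, which is the rank of 8, 5 and 2 among all genes by count. Scaled to the library this was 5779.6, 6158 and 13256 CPM, a mean of 8398 ± 4212 (SD, n = 3). Replicates 1 and 2 lay close together, and replicate 3 was higher. Per kb of exon, Map1b ranked 34, 26 and 7 among 7924 genes, lower than by count, since its merged exons span 15846 bases.

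Map1a (chromosome 2, 121289600 to 121310832, plus strand) encodes the MAP1 protein that predominates in mature neurons. Its counts were 5137, 20660 and 28065, or 1211, 902 and 2401 CPM, with a mean of 1505 ± 792 (SD, n = 3). It too was highest in replicate 3, but lowest in replicate 2. Within each library Map1a lay below Map1b, at -1.87, -2.39 and -2.08 in log2 CPM per kb, a mean difference of -2.12 (SD 0.26) or 4.33-fold. The size depends on the length used, at -2.50 with no length correction or per kb of main transcript and -2.79 per kb of coding sequence. The main transcript is the annotated transcript with the longest coding sequence. The spread of this difference was smaller than that of either gene alone, whose SDs were 0.72 for Map1a and 0.67 for Map1b in log2 CPM per kb. Of the Map1a exon bases, 2.24% overlap the opposite-strand gene Ppip5k1, and whether the counting used strand is not given in the sources used here.

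Map1s (chromosome 8, 70905932 to 70917529, plus strand) encodes the short MAP1 protein, which links microtubules with mitochondria and autophagy. It had 499, 207 and 104 counts, although replicate 1 was the shallowest library. In CPM this was 118, 9.04 and 8.90. Replicates 2 and 3 were nearly equal and replicate 1 was 13.2-fold above the lowest, the widest range of the 10 genes. Of the 8510 tested genes, 12.1% had a range at least as wide. Without replicate 1 the ratio of the higher to the lower library was 1.03. The mean of 45.2 CPM (SD 62.7, n = 3) thus rests on 1 library, and so does the place of Map1s above Map6 in the order. Map1s minus Map1b was -4.62, -8.40 and -9.52 in log2 CPM per kb.

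Map2 (chromosome 1, 66175273 to 66442583, plus strand) had 2718, 13149 and 18617 counts. This was 641, 574 and 1593 CPM, a mean of 936 ± 569.9 (SD, n = 3). Like Map1b, it was similar in replicates 1 and 2 and higher in replicate 3. Its distance to Map1b varied little between libraries: Map2 minus Map1b was -3.23, -3.48 and -3.11 in log2 CPM per kb (mean -3.27, SD 0.19). The mean was -2.30 per kb of main transcript and -2.79 per kb of coding sequence. It also lay below Map1a in each library, by a mean of 1.16 (SD 0.17). That order depends on the length used, since the difference was -0.20 per kb of the main coding transcript and -0.00072 per kb of coding sequence.

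Map4 (chromosome 9, 109931460 to 110083955, plus strand) had 1751, 16782 and 5763 counts, or 413, 733 and 493 CPM (mean 546 ± 166, SD, n = 3). It was highest in replicate 2, unlike its relative Map2. Map4 minus Map2 was -0.51, 0.47 and -1.57 in log2 CPM per kb, so the order of these neighbours differed between libraries and the mean of -0.54 (SD 1.02) does not exceed the spread. In replicate 2 Map4 made up 8.12% of the family counts and Map2 6.36%; in replicate 3 the shares were 2.71% and 8.77%.

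Map6 (chromosome 7, 99267447 to 99337137, plus strand) was the lowest of the 10 by mean log2 level. It had 54, 466 and 224 counts, or 12.7, 20.3 and 19.2 CPM (mean 17.4 ± 4.10, SD, n = 3), and its range of 1.60-fold was the narrowest. Without replicate 1 its mean level was 1.29 in place of 0.91 in log2 CPM per kb. Map6d1 (chromosome 16, 20233303 to 20241358, minus strand) had 135, 2416 and 726 counts, or 31.8, 105 and 62.1 CPM. The smaller relative was thus the more abundant: Map6d1 lay above Map6 by 2.79, 3.85 and 3.17 in log2 CPM per kb (mean 3.27, SD 0.53), or 9.64-fold. The size depends on the length used, at 1.79 with no length correction, 1.85 per kb of main transcript and 4.03 per kb of coding sequence.

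The MAP7 relatives differed in their pattern over the libraries. Map7d1 (chromosome 4, 126232167 to 126256343, minus strand) had 311, 1892 and 229 counts, or 73.3, 82.6 and 19.6 CPM. Map7d2 (chromosome X, 159414572 to 159498757, plus strand) had 381, 4423 and 1085 counts, or 89.8, 193 and 92.8 CPM. Replicate 3 was low for Map7d1, whereas for Map7d2 replicates 1 and 3 were similar and replicate 2 was high. Map7d1 minus Map7d2 was -0.12, -1.05 and -2.06 in log2 CPM per kb, below 0 in each library, with a mean of -1.08 (SD 0.97). Map9 (chromosome 3, 82358044 to 82395268, plus strand) had 591, 5711 and 2534 counts, or 139, 249 and 217 CPM (mean 202 ± 56.5, SD, n = 3).

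Among neighbours in the order, Map1b lay above Map1a by 2.12 (SD 0.26) and Map1a above Map2 by 1.16 (SD 0.17), both in each library. The order of Map1a and Map2 depends on the length used, as given above. Map2 and Map4, Map9 and Map7d2, Map6d1 and Map7d1, and Map1s and Map6 each changed places in at least 1 library. Map4 lay above Map9 by 0.25 (SD 0.22) in log2 CPM per kb, with 0.00 in replicate 3. Map7d2 lay above Map6d1 by 0.65 (SD 0.47) and Map7d1 above Map1s by 2.33 (SD 1.93), both in each library. These orders also depend on the length used. Map7d2 minus Map6d1 was -1.05 per kb of coding sequence. With no length correction, Map1s was above Map7d1 in replicate 1, at 118 against 73.3 CPM.

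**Figure D2:**
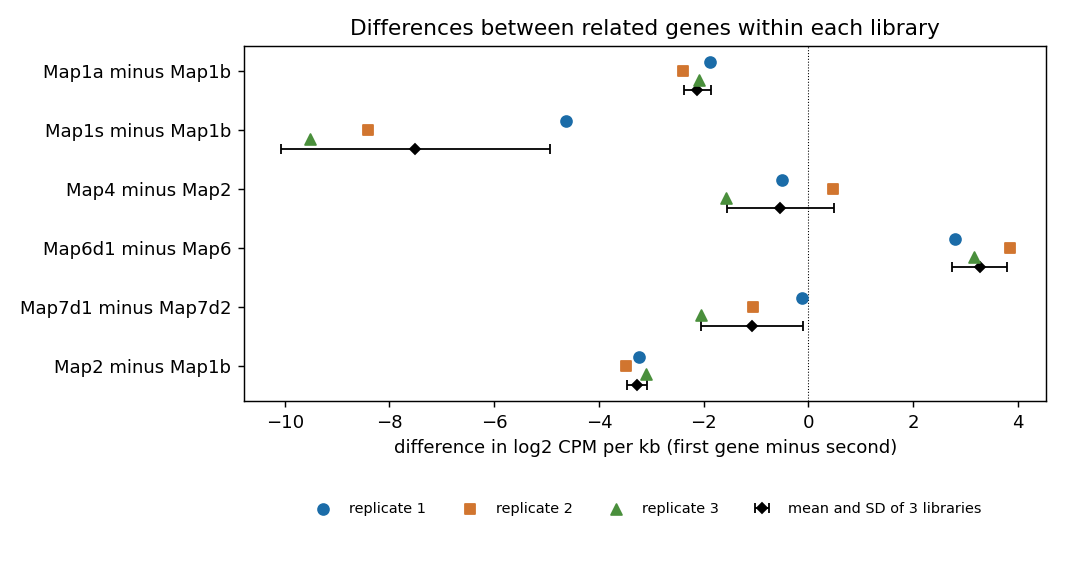
Each row is the difference between 2 genes in log2 CPM per kb within a library, with 1 point per library and the mean and SD of the 3 in black. Map1a and Map2 stay at a near-constant distance below Map1b (SD 0.26 and 0.19), whereas the distance of Map1s to Map1b ranges from -4.62 to -9.52.

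The spread between libraries was not used to choose the genes and was tested over all 8510 genes with a Poisson chi-square test. All 10 genes varied beyond sampling noise at an adjusted p under the threshold of 0.05 (Benjamini-Hochberg), Map6 with the highest adjusted p at 0.0047. Without replicate 1 the calls of Map1s (adjusted p = 0.848) and Map6 (0.421) ended, without replicate 2 that of Map7d2 (0.272), and with DESeq2 size factors that of Map6 (0.286), all by the same chi-square test. Of all tested genes 97.4% did so, and the count of members is near that background. A range of at least 2-fold between the highest and the lowest library was found for 7 of the 10, against 79.6% of all tested genes. The median range was 2.48-fold in the family and 3.64-fold over all genes, and the median coefficient of biological variation estimated with edgeR was 0.657 against 0.798. That coefficient is drawn towards a trend with level over all tested genes, so it partly reflects level. It was lowest in Map1b (0.585) and Map1a (0.596) and highest in the low genes Map6 (0.822) and Map1s (0.87). Map6 nevertheless had the narrowest range of the 10, at 1.60-fold. The background was not matched for level, so these medians do not show a family steadier than other genes. Map4, Map6 and Map9 stayed under 2-fold, but reached 2.67-, 2.40- and 2.69-fold with library totals alone, where all 10 genes passed 2-fold against 79.9% of tested genes. Without replicate 3 the count was 3 of 10 (Map1s, Map6d1 and Map7d2), against 60.3% of tested genes. Without replicate 1 it was 5, against 45.8%.

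Map1a, Map1b and Map2 were highest in replicate 3, above the mean of the other libraries by 1.20, 1.15 and 1.39 in log2 CPM. Map4, Map6, Map6d1, Map7d1, Map7d2 and Map9 were highest in replicate 2, and Map1s in replicate 1. With DESeq2 size factors, which moved the median gene by 0.19, -0.18 and -0.06 in replicates 1 to 3, Map6 was highest in replicate 3 and Map7d1 in replicate 1. With library totals alone, which moved it by -0.33, 0.25 and 0.08, the highest library was the same for all 10.

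Map1a, Map1b and Map2, which peaked in replicate 3, have long merged exons, of 12166 to 16449 bases. Their main transcripts are shorter, at 11825, 11808 and 6258 bases. Over the 743 tested genes with 12 kb of exon or more, the median departure of replicate 3 was 0.27, and over all 7924 it rose weakly with exon length (Spearman's rho 0.118, genes of the same 3 libraries). Map4, with 15143 bases of merged exon, departed by -0.16. Its main transcript is annotated at 4322 bases, the same as its coding length. That entry thus holds no untranslated sequence and may understate the length of the mRNA. Astrocyte markers summed to 3025, 1341 and 3114 CPM in replicates 1 to 3, with Gja1 at 0 counts in replicate 1, and oligodendrocyte markers to 877, 733 and 1204 CPM, with none of the 6 at 0. Both sums were highest in replicate 3, but that of astrocytes was nearly as high in replicate 1. Its leading gene Slc1a2 was highest in replicate 1, at 2874 CPM against 2796 in replicate 3. Slc1a3 (112, 32.5 and 169.6 CPM), Gfap (8.25, 5.94 and 40.6 CPM) and Aqp4 (24.8, 61.3 and 96 CPM) were highest in replicate 3. Aldh1l1 was highest in replicate 1 and Gja1 in replicate 2. The sum of interneuron markers was also highest in replicate 3, at 292, 239 and 346 CPM, with Pvalb and Vip at 0 counts in replicate 1. Gad2 followed that order (121, 71.5 and 197 CPM), but Gad1 was highest in replicate 1 (97.4 CPM) and Sst in replicate 2 (125 CPM). Slc32a1, Pvalb and Vip stayed at 1.28 CPM or less. The part of these lists in the result was not tested. Endothelial and mural markers summed to 415, 914 and 315 CPM, with Cldn5 and Pecam1 at 0 counts in replicate 1. Their sum was highest in replicate 2, like those of pan-neuronal (14898 CPM) and dentate granule cell (1348 CPM) markers. The pan-neuronal peak came mostly from Snap25 (5316, 10871 and 5338 CPM). Rbfox3 (727, 343 and 166 CPM) and Syn1 (3566, 1717 and 1589 CPM) were highest in replicate 1. Nefl was highest in replicate 3 (538, 1183 and 1810.2 CPM), and Syt1 had 558, 783 and 779.5 CPM. In replicate 2, 6 members peaked, Map4 among them. Rgs5 (370.1, 747 and 67.2 CPM) made up most of the endothelial and mural sum in replicates 1 and 2. Flt1 was highest in replicate 3 (17.2, 89.8 and 227 CPM), and the other genes of that list in replicate 2. The part of that list was not tested either.

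**Figure D3:**
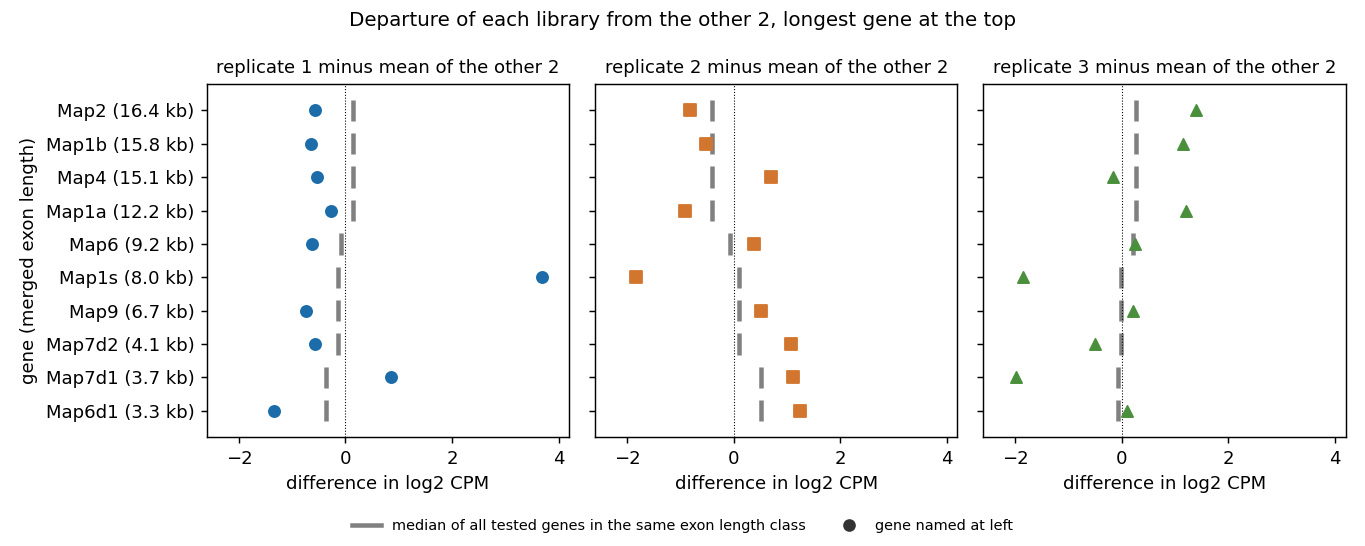
Each panel shows 1 library minus the mean of the other 2, in log2 CPM, for the 10 genes from the longest merged exon length at the top to the shortest, and the grey bar is the median of all tested genes in that length class. In replicate 3 Map2, Map1b and Map1a lie right of the grey bar of 0.27 and Map4 left of it, and in replicate 1 Map1s stands alone at 3.69.

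Map1b was set beside all tested genes by the mean absolute difference in log2 CPM per kb over the 3 libraries. The 5 nearest were the tubulin gene Tubb4a (0.42), the 14-3-3 gene Ywhab (0.50), the neurofilament gene Nefl (0.66), AI506816 (0.72) and the protein kinase C gene Prkcb (0.73). Tubb4a had 566, 398 and 556 CPM per kb in replicates 1 to 3, where Map1b had 365, 389 and 837. Nefl, at 159, 350.1 and 536 CPM per kb, was lowest in replicate 1 and highest in replicate 3, as Map1b was. Tubulin genes have near-identical copies, so their counts are uncertain.

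Other genes that act on microtubules were placed in 9 lists of 64 genes, of which 62 had a row and 55 were tested. Above the median gene in CPM per kb were 11 of the 55 and below it 0 (limma with a log2 threshold of 1, Benjamini-Hochberg adjusted over all genes), against 10.7% and 4.32% of all tested genes. At an unadjusted p under 0.05 (limma) the counts were 14 and 2, for which the share of all tested genes was not counted. The median level of the 55 was 0.55 in log2 units, against -0.14 over all genes. Of the 11 calls, 5 were in the plus-end list, 3 in the list of kinases that act on MAPs, 2 in the minus-end and nucleation list and 1 in the doublecortin family. List names are broad labels and do not give the role of each gene. In the kinase list, Cdk5r1 and Cdk5r2 encode regulatory subunits of Cdk5. Cdk5 itself was not called (level -0.95, adjusted p = 0.873, limma). The call ended under at least 1 alternative for Macf1 and Dst of the plus-end list and Cdk5r1 and Cdk5r2 of the kinase list. It also ended for Pafah1b1 of the minus-end and nucleation list. These genes and Cdk5 are named after their values were seen.

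Clip3, a cytoplasmic linker gene, was the highest of all 62 genes in these lists. It had 1440.3, 526 and 224 CPM per kb, with a level of 6.52 above the median gene (SE 0.52, adjusted p = 3.3e-09, limma). Clip3 thus exceeded Map1b in replicates 1 and 2 and lay below it in replicate 3. Dclk1, a doublecortin-like kinase that binds microtubules, had 66.3, 95.6 and 88.1 CPM per kb (level 3.77, SE 0.45, adjusted p = 1.6e-05, limma). The kinase gene Gsk3b, whose product phosphorylates several MAPs, had 39.6, 80.7 and 77.7 (level 3.38, SE 0.43, adjusted p = 7.2e-05, limma). Camsap2, a protein of free minus ends, had 62.8, 51.2 and 54.1 (level 3.21, SE 0.42, adjusted p = 1.5e-04, limma), a narrow range of 1.23-fold.

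The leading genes of the other lists did not pass. Stmn2, a tubulin-sequestering stathmin of neurons, had 25.7 ± 8.96 CPM per kb (SD, n = 3) and Katnal1, a severing enzyme, had 35.0, 14.4 and 13.8 in replicates 1 to 3. Ttll7, a tubulin polyglutamylase, had 15.7 ± 6.85, Map7 8.62 ± 4.10 and the LC3 gene Map1lc3a 7.87 ± 1.67. Mapt, the tau gene and a relative of Map2 and Map4, had 7.07, 9.73 and 7.84 CPM per kb, a level of 0.43 (SE 0.55, adjusted p = 0.996, limma); it was named after its values were seen. The lowest members of the lists reached from Stmn1, at 0.859, 19.7 and 9.44 CPM per kb, and Map1lc3b, at 5.46, 12.2 and 4.55, down to Fignl1, with 0, 1 and 0 counts. Map10, the lowest of the tau list, had 105, 28 and 12 counts and like Map1s was highest in the shallow replicate 1. Dclk2 had 1.43 ± 0.514 CPM per kb, Clip2 1.80 ± 1.34, Mark4 1.98 ± 1.33 and Nde1 0.708 ± 0.731, and Vash2 had 0, 23 and 0 counts.

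**Figure D4:**
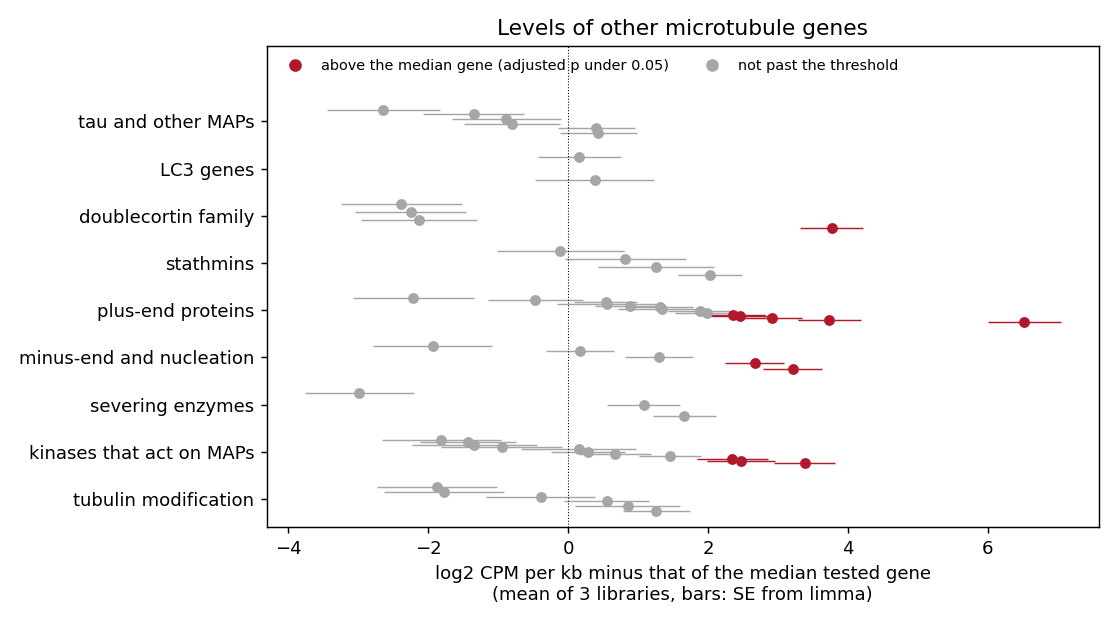
Each point is a tested gene, placed by its level in log2 CPM per kb minus that of the median tested gene, as the mean of 3 libraries with the SE from limma, by list. The 11 points in red passed the test, and Clip3 at 6.52 lies furthest right.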

How the data were processed

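The deposited files hold whole-number read counts per gene for each library; the authors' tools were STAR 2.0.0e and HTSeq on mm10, per the submitters' processing notes, with annotation and strand setting not given in the sources used here. Rows of the counter's summary were left out; reads on genes were 16.3, 38.2 and 21.1% of all listed. A count of 0 allows up to 3 counts, or 0.707, 0.131 and 0.257 CPM, for counting error only. CPM used TMM factors of 0.793, 1.19 and 1.06 (edgeR 4.0.16, R 4.3.3). The filter filterByExpr kept 8510 genes. Log2 CPM used a prior count of 2 and merged exon lengths of GENCODE vM21 (GRCm38), while the authors may have counted on another annotation; 93.1% of tested genes had a length. Spread was tested with a Poisson chi-square test, levels of other microtubule genes with limma 3.58.1 (TREAT, log2 threshold 1), both adjusted over all genes at 0.05. On simulated counts of 13225 genes, the spread test called 100% of those changed 2-fold and 0.0614% of the unchanged. Those counts held counting error only, so they do not show how the test acts on real spread between libraries. On simulated counts of 7818 genes, the level test called 39% of genes set 16-fold and 79% of genes set 64-fold above the median. Members, lists and tests were chosen with earlier results of these data known. Named were all members, the highest and lowest gene of each list, and the 5 genes nearest to Map1b. Alternatives were DESeq2 1.42.0 size factors, library totals, no filter, thinning, a prior count of 0.5, other lengths and each replicate left out; the main transcript length was added after seeing the data. Figures were drawn with matplotlib 3.10.9.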

Additional observations from a re-analysis of the deposited data

How the results depend on the processing

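All 10 genes varied beyond sampling noise with library totals alone, with no filter and when thinned (97.9, 86.6 and 96.0% of all tested genes), 9 with DESeq2 size factors (97.3%), and 8 to 10 when a replicate was left out (84.7 to 86.0%), all near the background. The count with a range of at least 2-fold was 7, 6 with DESeq2 size factors (80.5% of tested genes), 10 with library totals alone (79.9%), and 3 to 6 when a replicate was left out (5 without replicate 1 against 45.8%, 6 without replicate 2 against 59.8%, 3 without replicate 3 against 60.3%), where the range is taken over fewer libraries. Of the other microtubule genes, 11 of 55 lay above the median gene, and 28 of 62 with no filter, which lowers the median gene (19.5% of tested genes). Left-out replicates gave 8 to 16: 16 of 59 when replicate 1 was dropped (14.8%), 8 of 53 when replicate 2 was (7.93%) and 8 of 55 when replicate 3 was (8.16%). Thinning gave 8 of 50 above (10%), no length 16 of 55 (14.1%), coding length 12 (12.6%) and main transcript length 10 (10.9%). Below it lay 0 of 55 (4.32% of tested genes), and 0 to 1 without a replicate (2.88 to 5.82%). Further counts below were 1 of 50 when thinned (4.26%), 2 of 62 with no filter (18.2%) and 2 of 55 with no length (5.22%). Per kb of coding sequence 4 of 55 lay below (6%), and per kb of main transcript 1 of 55 (4.56%). Of the 11 genes above, 6 passed under all 11 alternatives, among them Clip3, Dclk1, Gsk3b and Camsap2, and 5 lost the call under at least 1. Map1b was first of the 10 under each scaling, length, prior count, thinning and left-out replicate. The order below it changed with the main transcript and coding lengths, without replicate 1 (Map6 above Map1s) and without replicate 3 (Map7d2 above Map9, Map7d1 above Map6d1). Map1a minus Map2 turned to -0.00072 per kb of coding sequence and -0.20 per kb of main transcript, and Map7d2 minus Map6d1 to -1.05 per kb of coding sequence. The cause of the other changes was not tested. No paired analysis was possible because there is 1 group. Map6, with 54 counts in replicate 1, was the member whose level rested on the fewest counts.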
